A study of Mus musculus with 34 samples.

Results

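The H2 genes form the mouse major histocompatibility complex (MHC), and 45 of the 54532 genes in the count table carried a symbol that begins with H2-. They were chosen by that symbol alone, together with a search for members present in some libraries only, so that presence or absence is described below without a test. All 45 lay on chromosome 17 of GRCm38 between bases 33974659 and 37483552. By symbol, 3 belonged to the classical class I genes (*H2-K1*, *H2-D1* and the pseudogene *H2-K2*), 29 to the nonclassical class I genes of the Q, T and M series and *H2-Bl*, 5 to the classical class II genes and 5 to the nonclassical class II genes. The other 3 were the pseudogenes *H2-Pa* and *H2-Pb* and *H2-Ke6*, whose product is a hydroxysteroid dehydrogenase (*Hsd17b8*) and no MHC molecule.

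RNA came from the dissected dorsal hippocampus of adult, singly housed male C57BL/6J mice, all of the same genotype. Mice were handled before the experiment. The homecage group was not trained, and the SOR group was trained in spatial object recognition, a task in which mice learn where objects stand, and euthanized an hour later. Each group had 4 libraries, called homecage 1 to 4 and SOR 1 to 4 below. Total estimated counts lay between 51406011 and 81525977 per library, and levels are given as CPM on library sizes scaled by their upper quartile.

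Class I molecules sit at the cell surface with beta-2-microglobulin and show peptides from inside the cell to CD8+ T cells and natural killer cells. Class II molecules show peptides from endosomes to CD4+ T cells and are made mainly by professional antigen-presenting cells. In the healthy brain microglia, endothelial cells and border macrophages are the best known sources, and class I genes are also known from neurons, where they have been tied to synapse remodelling. In bulk RNA, fewer cells of a type and less RNA per cell cannot be told apart.

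Of the 45 genes, 31 had counts in at least 1 library, 22 had 1 count or more in every library, and 11 reached a mean of 1 CPM over the 8 libraries. The other 14 were at 0 in all 8 libraries. Among these were 10 of the 14 genes of the M series, some of which are best known from sensory neurons of the vomeronasal organ. Also among them was *H2-Ea-ps*, the alpha chain gene of the E molecule, which is a pseudogene in C57BL/6 mice. Over all H2 genes the summed level ranged from 92.5 to 112 CPM. Classical class I genes made up 37.3% to 49.0% of that sum, nonclassical class I genes 31.6% to 39.4%, nonclassical class II genes 7.23% to 9.72% and classical class II genes 0.796% to 2.2%. The rest, 10.9% to 16.5%, was *H2-Ke6*, which encodes no MHC molecule but is part of the sum.

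**Figure D1:**
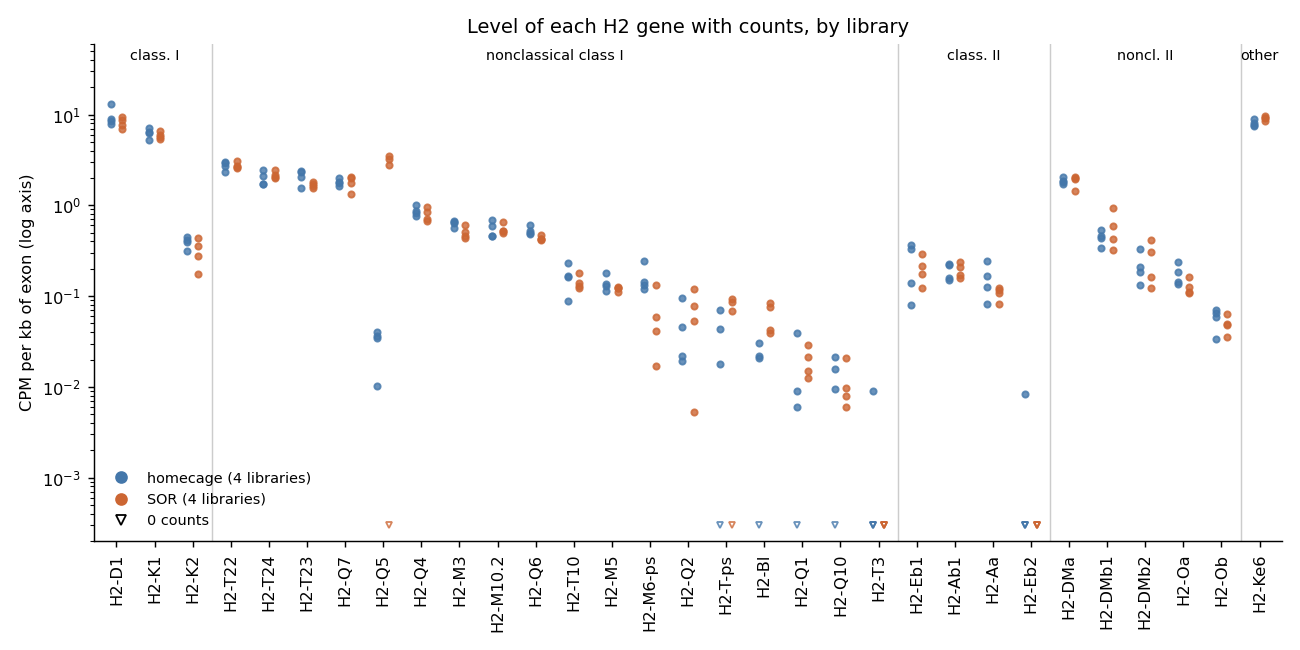
Level of each of the 31 H2 genes with counts, in CPM per kb of exon on a log axis, with 1 point per library (homecage blue, SOR orange) and open triangles for 0 counts. *H2-D1*, *H2-Ke6* and *H2-K1* sit highest, with means of 8.89, 8.59 and 6.09 CPM per kb, and the 3 high points of *H2-Q5* stand apart from its other 5 libraries.

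Among the H2 genes, mean RNA levels in CPM were highest for the classical class I genes *H2-D1* and *H2-K1*. *H2-D1* (ENSMUSG00000073411), 1 of the peptide-presenting heavy chains of this haplotype, stood at 22.8, 33.7, 22 and 20.2 CPM in homecage 1 to 4 and at 22.5, 20.0, 18.0 and 24.3 CPM in SOR 1 to 4. *H2-K1*, the other such heavy chain, stood at 18.9, 20.7, 15.4 and 18.6 CPM in the homecage libraries and at 16, 16.8, 17.3 and 19.6 CPM in the SOR libraries. Both were present throughout at similar levels, the groups overlapped, and homecage 2 was highest for both. The ratio of *H2-D1* to *H2-K1* counts lay between 1.04 and 1.63. Per kb of exon, the pseudogene *H2-K2* was far below them, at a mean level of 0.354 CPM per kb against 8.89 for *H2-D1*.

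Among nonclassical class I genes, *H2-T22* led with a mean level of 2.74 CPM per kb, followed by *H2-T24* at 2.08, *H2-T23* at 1.87 and *H2-Q7* at 1.79 CPM per kb. *H2-T22* encodes a molecule bound by some gamma-delta T cells. Its close copy *H2-T10* is listed in GENCODE as a polymorphic pseudogene, a type described below for *H2-Q5*. *H2-T22* had 13 to 26.6 times the counts of *H2-T10*. *H2-T23* encodes Qa-1, a ligand of the CD94/NKG2 receptors. It measured 6.89, 6.81, 4.49 and 5.86 CPM in homecage 1 to 4 and 4.66, 4.91, 5.20 and 4.52 CPM in SOR 1 to 4. Homecage 1, 2 and 4 were above every SOR library, and homecage 3 was below all of them. *H2-Q7*, which encodes the Qa-2 antigen, had 8.54, 7.66, 6.91 and 7.52 CPM in the homecage libraries and 5.69, 8.60, 8.72 and 7.56 CPM in the SOR libraries, with SOR 1 lowest. *H2-Q4* ranged from 1.97 to 2.63 CPM in homecage libraries and from 1.73 to 2.49 CPM in SOR libraries, and *H2-T24* from 3.72 to 5.29 and from 4.42 to 5.35 CPM. *H2-M3*, which presents N-formylated peptides of bacteria and mitochondria, ranged from 0.804 to 0.969 CPM in homecage libraries and from 0.630 to 0.868 CPM in SOR libraries. *H2-M10.2* was the only gene of its M10 subfamily with counts, at 28.87 to 55.22 counts per library.

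Classical class II genes were lower than the abundant class I genes. *H2-Aa* and *H2-Ab1*, the alpha and beta chains of the A molecule, had mean levels of 0.130 and 0.190 CPM per kb, and *H2-Eb1*, the beta chain of the E molecule, 0.215 CPM per kb. *H2-Aa* measured 0.627, 0.310, 0.477 and 0.914 CPM in homecage 1 to 4 and 0.464, 0.406, 0.438 and 0.310 CPM in SOR 1 to 4. *H2-Eb1* measured 0.712, 0.154, 0.274 and 0.643 CPM in the homecage libraries and 0.571, 0.342, 0.418 and 0.236 CPM in the SOR libraries. Homecage 1 and 4 were highest for both genes. In the homecage libraries the classical class II sum was 1.90, 0.896, 1.13 and 2.14 CPM, beside summed choroid plexus markers of 1110, 27.4, 68.1 and 895 CPM. In the SOR libraries it was 1.44, 1.36, 1.29 and 1.08 CPM, beside 4040, 896, 807 and 44.2 CPM of those markers. The part of dissected choroid plexus in these class II values was not tested.

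*H2-DMa*, the alpha chain of the DM molecule that exchanges peptides on class II, was the leading nonclassical class II gene with a mean of 1.86 CPM per kb. It stood at 5.93, 7.10, 6.36 and 6.30 CPM in homecage 1 to 4 and at 7.09, 6.67, 4.92 and 6.95 CPM in SOR 1 to 4, and the groups overlapped. Its 2 beta chain genes shared their counts unevenly, since the ratio of *H2-DMb1* to *H2-DMb2* ranged from 0.755 in SOR 2 to 7.4 in SOR 1. Summed, the pair held 1.06, 1.12, 1.14 and 1.13 CPM in the homecage libraries and 1.80, 1.26, 1.52 and 1 CPM in the SOR libraries. *H2-Oa* and *H2-Ob*, the chains of the DO molecule that restrains DM, were at 0.151 and 0.0529 CPM per kb.

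Class I genes arose by repeated duplication and remain alike in sequence, which limits how surely a read can be given to one of them. Among the distinct 31-base words of its transcripts in GENCODE M21, *H2-Q5* had 42.2% that occur in no other gene, *H2-T22* 49.0%, *H2-T10* 49.3%, *H2-Q6* 49.7%, *H2-Q7* 60.9%, *H2-D1* 73.3% and *H2-K1* 77.2%. *H2-T22* and *H2-T10* shared most with each other, and 43.2% of the words of *H2-Q5* were also found in *H2-Q7*. *H2-DMb1* and *H2-DMb2* had 68.6% and 63.6% of their own. Class II genes other than the DMb pair had at least 98.6% of their own words. *H2-Ke6* had 23.9%, because 76.1% of its words lie in *Gm20427*, a transcript on the same strand that overlaps it. Counts of H2 genes with much shared sequence depend on how the quantification divided ambiguous reads. *H2-T10* and *H2-T-ps* also overlap the protein-coding gene *Gm7030* on the same strand. Overlaps on the opposite strand include *H2-T22*, *H2-T23* and *H2-T24* with *A930015D03Rik*, *H2-Q4* with *Gm11131* and *H2-DMa* with *Brd2*. Among them are also *H2-Eb1* with *Gm20513* and *H2-Oa* with *BC051537*. Whether strand was used in counting is not given in the sources used here.

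**Figure D2:**
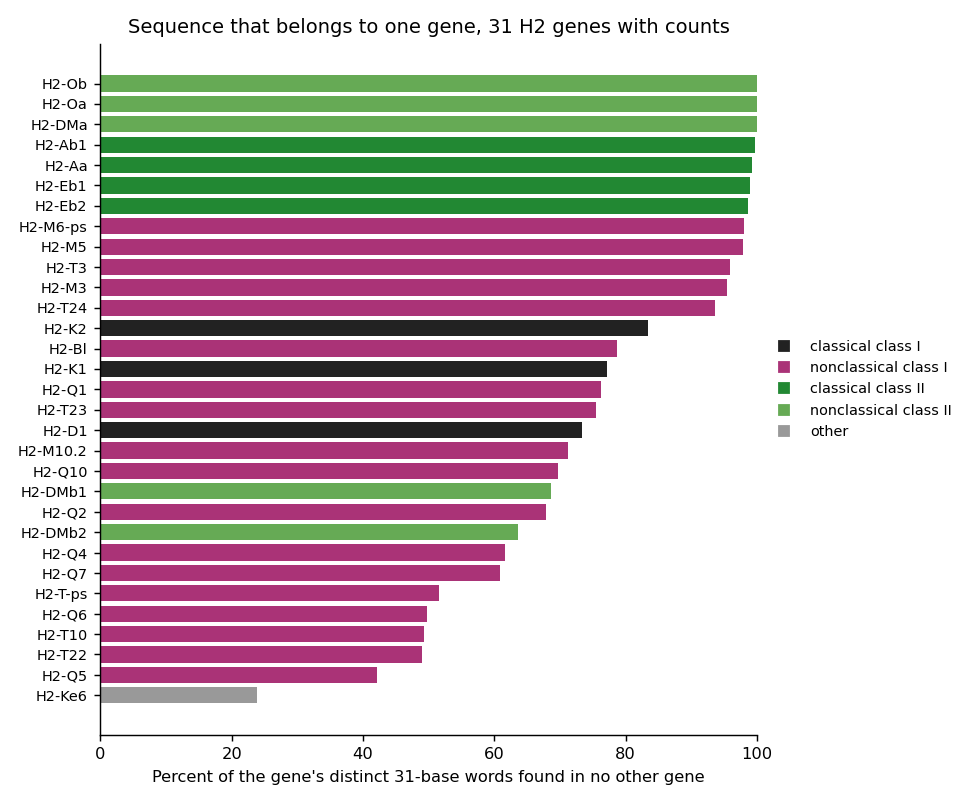
Percent of the distinct 31-base words of each of the 31 H2 genes with counts that occur in no other GENCODE M21 gene, coloured by class. *H2-Ke6* at 23.9% and *H2-Q5* at 42.2% are at the bottom, and *H2-DMa*, *H2-Oa* and *H2-Ob* at 100% are at the top.

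The likeness can be seen in exon 2, which encodes the alpha 1 domain, one wall of the peptide-binding groove. Exon 2 of *H2-Q5* (chr17:35394357-35394626, plus strand), *H2-Q7* (chr17:35439452-35439721, plus), *H2-Q6* (chr17:35425108-35425377, plus) and *H2-D1* (chr17:35263379-35263648, plus) is given below from GRCm38, 5′ to 3′, as the 4 examples between which reads had to be told apart. Each is 270 bases long. Capitals mark bases that differ from *H2-Q5*: 12 in *H2-Q7*, 15 in *H2-Q6* and 39 in *H2-D1*.
H2-Q5: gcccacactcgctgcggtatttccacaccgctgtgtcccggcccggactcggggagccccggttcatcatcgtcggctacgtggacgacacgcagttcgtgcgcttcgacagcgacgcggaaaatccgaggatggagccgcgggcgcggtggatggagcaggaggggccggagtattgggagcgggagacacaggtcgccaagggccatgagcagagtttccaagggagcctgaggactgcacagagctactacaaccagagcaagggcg
H2-Q7: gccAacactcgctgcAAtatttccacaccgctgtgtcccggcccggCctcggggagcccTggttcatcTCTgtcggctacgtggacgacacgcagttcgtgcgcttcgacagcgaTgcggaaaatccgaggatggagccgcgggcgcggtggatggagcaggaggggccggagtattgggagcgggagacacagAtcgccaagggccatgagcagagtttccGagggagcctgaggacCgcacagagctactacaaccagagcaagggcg
H2-Q6: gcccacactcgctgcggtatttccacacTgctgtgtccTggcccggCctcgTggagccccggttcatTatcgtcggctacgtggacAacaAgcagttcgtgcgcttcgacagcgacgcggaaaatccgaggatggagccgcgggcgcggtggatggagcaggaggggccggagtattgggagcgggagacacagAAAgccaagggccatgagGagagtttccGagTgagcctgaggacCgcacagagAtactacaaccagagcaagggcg
H2-D1: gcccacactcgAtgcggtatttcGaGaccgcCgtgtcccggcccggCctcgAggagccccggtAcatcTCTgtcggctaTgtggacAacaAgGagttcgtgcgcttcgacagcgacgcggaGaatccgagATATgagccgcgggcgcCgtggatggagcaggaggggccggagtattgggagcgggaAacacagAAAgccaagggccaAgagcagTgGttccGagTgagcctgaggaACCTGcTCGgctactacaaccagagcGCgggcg

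The coding part of exon 1 of *H2-Q5*, which is 64 bases long, did not differ from that of *H2-Q7* at any base. Exon 4 of the coding transcript differed at 12 of 285 bases. Exon 3 of *H2-Q5* was 269 bases long against 276 in *H2-Q7*, a deficit of 7 bases, and 6 of the 269 aligned bases differed.

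By a rule of at least 10 counts in 1 library and under 1 count in another, 3 of the 45 H2 genes were present in some libraries only, namely *H2-Q5*, *H2-Q2* and *H2-M6-ps*. Over all 54532 genes, 2.12% met the same rule. *H2-Q2* had 11.38, 7.01, 2.67 and 3.38 counts in homecage 1 to 4 and 8.67, 0.64, 16.96 and 8.55 counts in SOR 1 to 4. *H2-M6-ps*, a pseudogene, had 7.48, 18.00, 8.26 and 9.86 counts in the homecage libraries and 3.13, 0.97, 3.96 and 7.01 counts in the SOR libraries. Both met the lower limit in SOR 2, where each was just under 1 count. *H2-M6-ps* met the upper limit in homecage 2 alone, and *H2-Q2* in homecage 1 and SOR 3.

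*H2-Q5* (ENSMUSG00000055413, chr17:35394126-35397800, plus strand) had a wider range. GENCODE lists it as a polymorphic pseudogene, the type used for a gene that is intact in some strains but not in the reference strain. It had 3.56, 4.10, 0.92 and 4.35 counts in homecage 1 to 4. In SOR 1 to 4 it had 0.00, 283.01, 286.63 and 284.53 counts, or 0.00, 5.10, 4.40 and 5.59 CPM. Thus SOR 2, 3 and 4 were high, and SOR 1 lay below all homecage libraries. As a share of *H2-Q7* counts, *H2-Q5* was at 0.757%, 0.751%, 0.237% and 0.726% in homecage 1 to 4 and at 0.0%, 59.3%, 50.5% and 73.9% in SOR 1 to 4. As a description written from these values after they were seen, a requirement of at least 10 counts in SOR 2, 3 and 4, each over 5 times every other library, was met by no gene of the table besides *H2-Q5*.

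Of the neighbouring genes, *H2-Q6* stood at 1.26, 1.10, 1.04 and 1.02 CPM in homecage 1 to 4 and at 0.861, 0.994, 0.895 and 0.881 CPM in SOR 1 to 4. The sum of *H2-Q5* and *H2-Q7*, which does not depend on how reads were divided between that pair, was 8.61, 7.72, 6.93 and 7.57 CPM in the homecage libraries and 5.69, 13.7, 13.1 and 13.1 CPM in the SOR libraries. The ratio of *H2-Q7* to *H2-Q6* counts was 6.78, 6.95, 6.62 and 7.40 in homecage 1 to 4, 6.61 in SOR 1, and 8.66, 9.74 and 8.58 in SOR 2 to 4, so that the 3 libraries with high *H2-Q5* were also highest in this ratio, without overlap. That split was noticed after the values were seen. Beside these values, choroid plexus markers summed to 4040, 896, 807 and 44.2 CPM in SOR 1 to 4, microglial markers to 338, 326, 313 and 354 CPM, B cell markers to 7.61, 11, 7.56 and 8.53 CPM, and markers of T and NK cells to 0.624, 0.663, 1.46 and 1.54 CPM. Their part in the values of *H2-Q5* was not tested.

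GENCODE gives *H2-Q5* 3 transcripts. The processed transcript H2-Q5-201, of 172 bases, had 0.0% of its 31-base words to itself, and all of them also occur in *H2-Q7*. The coding model H2-Q5-202 (998 bases) had 37.2% of its own and the retained intron H2-Q5-203 (1156 bases) 45.6%. Counts per transcript were not analysed here, and the part of shared sequence, of a difference between mice at this gene and of training in the values of *H2-Q5* was not tested.

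**Figure D3:**
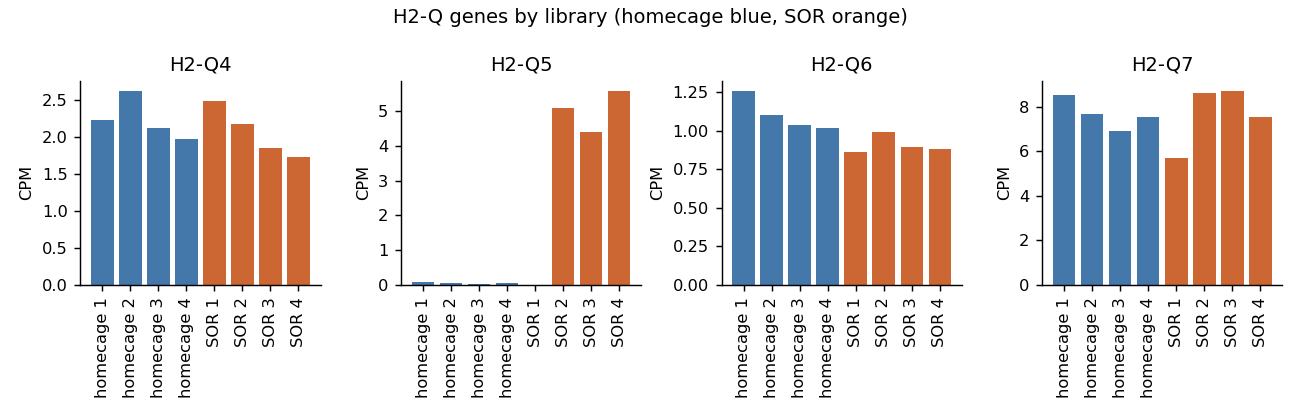
CPM of *H2-Q4*, *H2-Q5*, *H2-Q6* and *H2-Q7* in each library (bars; homecage blue, SOR orange), each panel with its own axis from 0. *H2-Q5* reaches 4.40 to 5.59 CPM in SOR 2 to 4 and is at most 0.0647 CPM elsewhere, while *H2-Q4* spans 1.73 to 2.63 CPM and *H2-Q7* 5.69 to 8.72 CPM over all libraries.

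Training was compared with homecage for the 22 H2 genes that passed the filter on low counts, which *H2-Q5* did not pass because only 3 libraries held enough counts. With edgeR's quasi-likelihood F test, 0 of the 22 genes were called (adjusted p below 0.05 together with a fold change of more than 1.4), against 0.173% of all 22018 genes tested. Adjusted p ranged from 0.477 to 0.998. At an unadjusted p under 0.05 the count was 2 (*H2-T23* and *H2-Ke6*), against 10.1% of all genes. DESeq2 also gave 2 such genes and edgeR's likelihood ratio test 0, and neither called any of the 22. Log2 fold changes lay between -0.51 and 0.37, and only *H2-Aa* passed the fold of 1.4 without regard to p. Its value of -0.51 was -0.18 without homecage 4, -0.41 without SOR 4 and -0.43 with the replicate number as a block, all inside that fold.

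*H2-T23* had the largest difference relative to its error among MHC genes, with a homecage level of 6.01 ± 1.12 CPM, an SOR level of 4.82 ± 0.297 CPM (SD, n = 4 each) and a log2 fold change of -0.32 (SE 0.138). Its adjusted p from edgeR was 0.477. *H2-Ke6* went the other way, from 13.2 ± 1.02 to 15.0 ± 0.752 CPM (SD, n = 4 each), with a log2 fold change of 0.18 (SE 0.0765) and an edgeR adjusted p of 0.477. *H2-Q6* was the 1 tested H2 gene whose groups did not overlap, each SOR library being below each homecage library, while 6.95% of all genes tested did not overlap either. Its log2 fold change was -0.28 (SE 0.149), with an edgeR adjusted p of 0.561. An exact two-sided permutation test gave 0.143 for *H2-T23* and 0.0571 for *H2-Ke6*. For *H2-Q6* it gave 0.0286, the smallest p that 4 against 4 allows. Any gene whose groups do not overlap gets this p, so that it adds nothing to the lack of overlap. The untested *H2-Bl* also did not overlap, with 0.00 to 4.10 counts in homecage and 3.98 to 9.35 counts in SOR libraries before scaling, which is close to the limit of detection.

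The lowest log2 fold changes were those of *H2-Aa* (-0.51, SE 0.322), *H2-Oa* (-0.45, SE 0.310) and *H2-M3* (-0.34, SE 0.172). *H2-DMb1* (0.37, SE 0.308), *H2-DMb2* (0.25, SE 0.411) and *H2-Ke6* had the largest positive values. None of these passed the test. *H2-Oa* had only 8.75 to 26.87 counts per library. *H2-DMb1* was at 1.59 CPM in SOR 1 and between 0.541 and 0.983 CPM in all other libraries, so that SOR 1 set its mean. Among the most abundant genes the values were -0.22 (SE 0.155) for *H2-D1*, which was -0.03 without homecage 2, -0.08 (SE 0.0973) for *H2-K1* and -0.01 (SE 0.101) for *H2-T22*.

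Below 0 were 17 of the 22 log2 fold changes, or 77.3%, against 56.2% of all genes tested. Scaling with TMM or RLE factors left 13 of 22 below 0, and the genes that crossed 0 were *H2-DMa*, *H2-Q7*, *H2-T22* and *H2-M10.2*. The median over the 22 genes was -0.14 and that over all genes -0.019. By class, 3 of 3 classical class I, 9 of 10 nonclassical class I, 2 of 3 classical class II and 3 of 5 nonclassical class II genes had a value below 0.

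**Figure D4:**
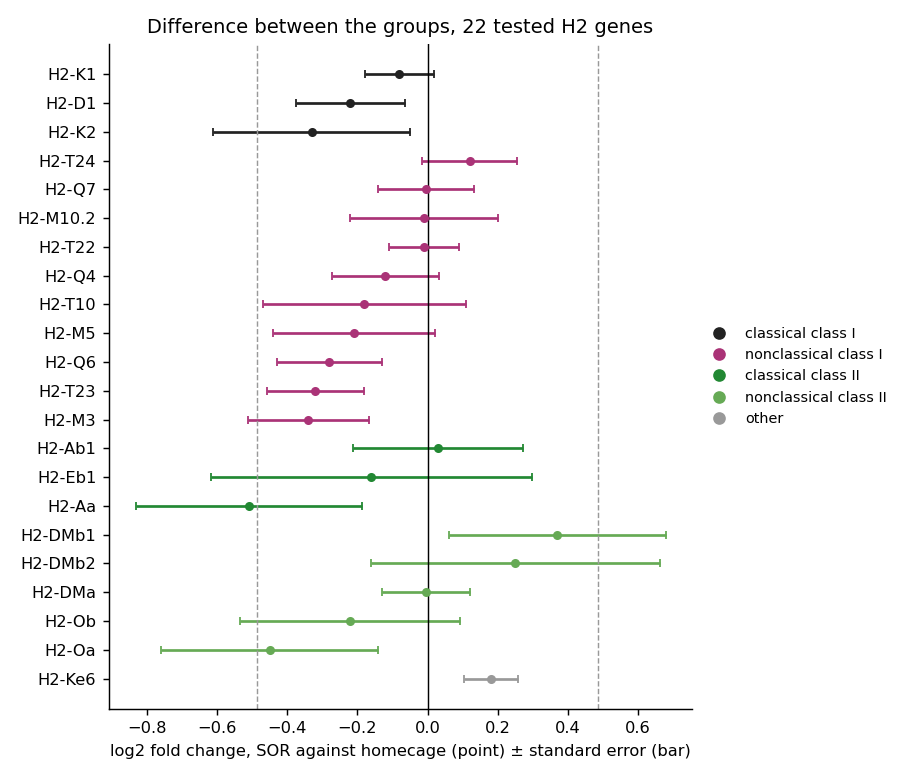
Log2 fold change of SOR against homecage for the 22 tested H2 genes, grouped by class, with 1 standard error to each side and dashed lines at a fold of 1.4. Values run from -0.51 for *H2-Aa* to 0.37 for *H2-DMb1*, and none was called.

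Summed by class, the levels of SOR and homecage libraries overlapped. Classical class I genes summed to 43.7 ± 7.78 CPM in homecage and 39.1 ± 3.70 CPM in SOR libraries, with the highest sum, 55.1 CPM, in homecage 2. Nonclassical class II genes summed to 8.09 ± 0.472 and 8.25 ± 1 CPM, and classical class II genes to 1.52 ± 0.597 and 1.29 ± 0.156 CPM (SD, n = 4 each throughout). For nonclassical class I genes the sums were 33.7 ± 1.27 and 35.9 ± 3.43 CPM, a log2 ratio of 0.09. Without *H2-Q5* they were 33.6 ± 1.26 and 32.1 ± 1.51 CPM, a log2 ratio of -0.07, so that 1 gene set the direction of its class.

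**Figure D5:**
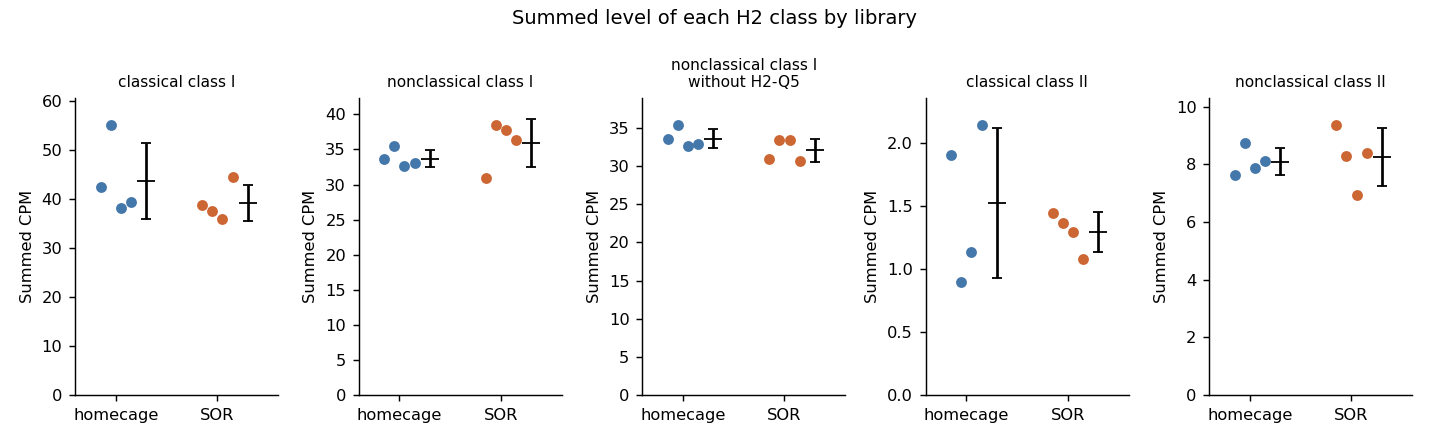
Summed CPM of each H2 class by library (points; homecage blue, SOR orange), with the mean and SD of 4 libraries in black and axes from 0. The groups overlap in each class, and leaving out *H2-Q5* lowers SOR 2 to 4 of the nonclassical class I sum to between 30.7 and 33.4 CPM.

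Partner genes were measured in the same fit. They were genes for class I loading and the class II pathway, interferon genes, class I-like genes and class I receptor genes. Of the 63 tested partner genes, 0 passed an adjusted p of 0.05 with edgeR's quasi-likelihood F test, its likelihood ratio test or DESeq2. At an unadjusted p under 0.05 they gave 9, 9 and 8 genes, while 10.1%, 8.47% and 9.96% of all 22018 genes were that low. Of 15 genes for class I loading, 7 had values above and 8 below 0, with a median log2 fold change of -0.00. *B2m*, the beta-2-microglobulin light chain, stood at 84.7 CPM in homecage and 81.9 CPM in SOR libraries on average, a log2 fold change of -0.05 (SE 0.0855). *Psmb9*, an immunoproteasome subunit, had the largest value of the list, at -1.09 (SE 0.341, edgeR adjusted p = 0.306). It measured 0.569, 0.959, 1.94 and 0.912 CPM in homecage 1 to 4 and 0.530, 0.556, 0.399 and 0.578 CPM in SOR 1 to 4, so that homecage 1 alone lay within the SOR range, and the value was -0.67 without homecage 3. Values above 0 included the chaperone gene *Calr* (calreticulin) at 0.25 (SE 0.0871, edgeR adjusted p = 0.363), with 425 to 468 CPM in homecage and 483 to 650 CPM in SOR libraries, the peptidase gene *Erap1* at 0.43 (SE 0.313) and *Pdia3*, a disulfide isomerase gene, at 0.19 (SE 0.101). The peptide transporter subunits *Tap1* and *Tap2* had log2 fold changes of -0.35 (SE 0.180) and -0.15 (SE 0.186), and the tapasin gene *Tapbp* 0.0014 (SE 0.110). *Nlrc5*, the transactivator of class I genes, had a value of -0.74 (SE 0.533), which came from homecage 2, and its value was 0.25 without that library.

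Of 11 class II pathway genes, 4 had values above and 7 below 0, with a median of -0.06. *Cd74*, the invariant chain, averaged 1.04 CPM in the homecage group and 0.991 CPM after training, with a log2 fold change of -0.07 (SE 0.249). *Ciita*, the class II transactivator, had a value of 0.38 (SE 0.162, edgeR adjusted p = 0.474). *Ifi30*, a lysosomal thiol reductase, had 1.52, 1.24, 1.18 and 1.35 CPM in homecage 1 to 4 and 2.83, 1.54, 1.72 and 1.86 CPM in SOR 1 to 4, without overlap, at 0.59 (SE 0.199, edgeR adjusted p = 0.341). SOR 1 was highest for *Ifi30*, *Ciita* and *H2-DMb1*, but not for *Cd74* (1.01 CPM, against 1.34 CPM in homecage 1) or *H2-Aa* (0.464 CPM, against 0.914 CPM in homecage 4). The same library had the highest sums of choroid plexus markers, 4040 CPM, meningeal fibroblast markers, 40.1 CPM, and border macrophage markers, 9.71 CPM. Their part in these values was not tested.

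Of 25 interferon signalling and response genes, 6 were above and 19 below 0, with a median of -0.12. Over all genes tested, 56.2% were below 0. *Irf7*, a master regulator of type I interferon, had a value of -0.69 (SE 0.257) and *Oasl2*, an interferon-stimulated gene, -0.52 (SE 0.270), both highest in homecage 2. Of 7 tested class I-like genes outside the H2 symbols, 4 were above and 3 below 0. *Cd1d1*, which presents lipids to natural killer T cells, had a value of -0.76 (SE 0.335) and *Ulbp1*, an NKG2D ligand, -0.71 (SE 0.499). Among 5 tested class I receptor genes 4 were above 0, with *Lilrb4a* at 0.40 (SE 0.304), while the T cell receptor zeta chain *Cd247* had a value of -0.87 (SE 0.405). Adjusted p from edgeR for the genes named here was 0.400 or higher.

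Of 63 tested markers of cells that could carry H2 RNA, 0 passed an adjusted p of 0.05 with edgeR's quasi-likelihood F test and 6 an unadjusted p under 0.05, while DESeq2 gave 1 (*Cldn5*, an endothelial tight junction gene, named after its value was seen) and 7 and the likelihood ratio test 0 and 7. Over all 22018 genes, an adjusted p under 0.05 was reached by 0.309%, 1.98% and 0.972% with the quasi-likelihood test, DESeq2 and the likelihood ratio test, and an unadjusted p under 0.05 by 10.1%, 9.96% and 8.47%. Microglial markers summed to 321 to 370 CPM in homecage and 313 to 354 CPM in SOR libraries, 8 of 10 having log2 fold changes below 0, with a median of -0.09. Endothelial markers summed to 146 to 174 and 157 to 163 CPM, and border macrophage markers to 4.94 to 7.63 and 6.14 to 9.71 CPM. Dendritic cell markers summed to 24.6 to 26.1 and 23.3 to 25.1 CPM, B cell markers to 9.90 to 12.4 and 7.56 to 11 CPM, and markers of T and NK cells to 0.874 to 1.25 and 0.624 to 1.54 CPM. Neutrophil markers summed to at most 0.196 CPM, with *Ly6g* at 0 in all 8 libraries. Red blood cell markers summed to 98.6 to 127 and 115 to 184 CPM with 5 of 5 above 0. Meningeal fibroblast markers summed to 13.1 to 30.7 and 20.1 to 40.1 CPM, also with 5 of 5 above 0. Choroid plexus markers summed to 27.4 to 1110 and 44.2 to 4040 CPM, with 8 of 8 above 0 and a median of 1.22. Of these 8, 0 had an unadjusted p under 0.05 with the quasi-likelihood test. Markers of hippocampal neurons, which check the tissue label, summed to 592 to 666 and 594 to 654 CPM. How far any of these cell types carried the H2 values was not tested.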

How the data were processed

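Bulk RNA-seq of the dorsal hippocampus was analysed for 4 homecage and 4 SOR libraries, 1 per mouse. The methods name a stranded total RNA kit with ribosomal depletion and gene counting with STAR and featureCounts in bcbio, whereas the labels name polyA RNA. The deposited table holds estimated counts per gene, which the authors summarised with tximport without normalization, and 52.6% of its values are not whole. The quantifier and its handling of ambiguous reads are not given in the sources used here. The spatial, single-nucleus and other data of the study were not analysed here.

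After rounding, low genes were dropped by filterByExpr and libraries scaled by upper quartile. SOR and homecage were compared in edgeR 4.0.16 (R 4.3.3) by its quasi-likelihood F test, adjusted by Benjamini-Hochberg over 22018 genes. Calls needed an adjusted p below 0.05 together with a fold change of more than 1.4. The methods also name RUVs but no number of factors, so that fits with such factors served as alternatives. Standard errors were derived from the F statistic, and exact permutation tests used log2(CPM + 0.05) over 70 assignments. The fits were tested on simulated data. Total counts were 51406011 to 81525977 per library, and replicates differed with a chi-square per degree of freedom of 12 to 53.8. The labels name no pairing by replicate number, and the main fit took none. Correlations of deviations, given below, showed no sign of such pairing but could not exclude it. The members, partner lists and markers were chosen with earlier results of these data known. Named were H2 genes whose mean reached 1 CPM, those present in some libraries only, those past adjusted p, the 3 largest rises and 3 largest falls, those whose groups did not overlap, *B2m*, *Tap1*, *Tap2*, *Tapbp*, *Nlrc5*, *Cd74*, *Ciita* and the 2 largest changes per partner list. Others were named after their values were seen.

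Positions, gene types and transcripts were from GENCODE M21, exon sequences from the RefSeq copy of GRCm38, the build of that annotation, and 54495 of 54532 genes had a GENCODE record. Words of 31 bases on the transcript strand were compared over all transcripts, and exons of unequal length were aligned with Biopython 1.88. Tables and plots were made with Python 3.11.15, pandas 2.3.3, numpy 2.4.6 and matplotlib 3.10.9. As alternatives, TMM or RLE factors or library size alone replaced the scaling, the filter was set to above 5 counts in 2 or more samples or dropped, and the likelihood ratio test or DESeq2 1.42.0 replaced the test. Further ones were the replicate number as a block, 1 or 2 RUVs factors, adjusted p alone, other presence limits, sums per kb and each library left out. Leaving *H2-Q5* out of its class sum was added after seeing the data.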

Additional observations from a re-analysis of the deposited data

Results flagged for a closer look

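In groups of 4 libraries, 88 groups of values were checked for a library standing apart by Dixon's gap, and 2 stood apart, where chance gives about 1 in 20. *Nlrc5*, the class I transactivator, was at 2.38 CPM in homecage 2 and between 0.442 and 0.548 CPM in the other homecage libraries. *H2-D1*, *H2-K1* and the classical class I sum were also highest in homecage 2, at 33.7, 20.7 and 55.1 CPM. The nonclassical class I sum was 35.5 CPM there and was highest in SOR 2, at 38.5 CPM. Without *H2-Q5* that sum was highest in homecage 2, at 35.4 CPM. A link of these levels to *Nlrc5* was not tested. *Ciita*, the class II transactivator, was at 1.41 CPM in homecage 1 and at 1.22 CPM in each of the others to 3 digits, a gap that is large only beside their closeness.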

How the results depend on the processing

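No H2 gene was called under any scaling, with RUVs factors, with the replicate block, with the likelihood ratio test or with DESeq2. With no filter beyond a count above 0, 1 was called, and 1 without SOR replicate 1, *H2-Q5* in both, with adjusted p from edgeR of 0.027 and 4.33e-06 (log2 fold change 6.19 and 6.61); it was singled out for its pattern, so these p are no independent test. In the other settings that tested it its adjusted p was 0.0898 to 0.281. The H2 genes called ranged from 0 to 1 with each library left out. Members with an unadjusted p under 0.05 numbered 1 with TMM or RLE, 5 with a filter at above 5 counts, 4 with no filter, 0 with the likelihood ratio test or the replicate block, and 0 to 2 with a library left out. The median log2 fold change was -0.08 with a filter at above 5 counts and -0.15 to -0.03 with a library left out.

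Over all genes, 38 were called, 105 with the likelihood ratio test, 114 with DESeq2, 68 at adjusted p alone, and 22 to 38 with a library left out (22 without homecage replicate 2, 25 without homecage replicate 4). Same-numbered samples deviated together with correlations of -0.0837 to 0.073, against -0.2 to 0.194 for other numbers, and no SOR sample correlated best with its own number (0 of 4). With the replicate block 30 genes and 0 H2 genes were called. Nonclassical class I genes without *H2-Q5* had a log2 ratio of -0.07. H2 genes present in some libraries only numbered 7 at a limit of 5 counts, 1 at 20 counts, and 1 to 3 with a library left out (1 without SOR replicate 2).

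Sign changes were limited to log2 fold changes near 0, or to single libraries left out. With TMM, *H2-DMa* was at 0.02, *H2-Q7* at 0.01, *H2-T22* at 0.02 and *H2-M10.2* at 0.01. RLE factors and DESeq2 gave 0.02, 0.02, 0.02 and 0.01 for these. With library size alone *H2-DMa* was at 0.0034, *H2-Q7* at 0.0013 and *H2-T22* at 0.0020. With a filter at above 5 counts *H2-DMa* was at 0.00013 and *H2-Q7* at 0.0015. With 1 RUVs factor *H2-DMa* was at 0.0013, and with 2 factors *H2-Q7* was at 0.02 and *H2-M10.2* at 0.0032. *Tapbp* was at -0.0040 with the replicate block and at -0.02 and -0.03 with 1 and 2 RUVs factors. With a library left out, the values ran from -0.06 to 0.10 for *H2-DMa*, from -0.08 to 0.52 for *H2-DMb2*, from -0.09 to 0.13 for *H2-Ab1*, from -0.45 to 0.14 for *H2-Eb1*, from -0.07 to 0.12 for *H2-Q7*, from -0.08 to 0.04 for *H2-T22*, from -0.37 to 0.05 for *H2-T10*, from -0.11 to 0.12 for *H2-M10.2*, from -0.10 to 0.04 for *B2m*, from -0.28 to 0.05 for *Tap2*, from -0.09 to 0.07 for *Tapbp*, from -0.97 to 0.25 for *Nlrc5* and from -0.26 to 0.07 for *Cd74*. The cause was not tested. *H2-Bl*, with a few counts per library, did not pass the main filter.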
